A study of Sus scrofa with 21 samples.

Results

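The border zone of infarcted newborn pig hearts was compared between 2 ages, with 3 hearts collected on postnatal day 14 set against 3 collected on postnatal day 7. These 6 libraries were chosen by their sample names, are 6 of the 21 libraries of the series, and each came from a separate pig. In all 6 pigs the left descending coronary artery was tied for good on postnatal day 1, which makes the hearts 13 and 6 days past the injury. Age and time since injury moved together in this comparison and cannot be told apart within it, so 3 control hearts of day 14 and 3 of day 7 were used as an age-matched background. The sample names call the controls naive, whereas the protocol in the labels gives them the same operation without the tie, and they are called naive here.

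The border zone is the living muscle next to an infarct, where surviving cardiomyocytes, fibroblasts, vessels and immune cells meet. Healing of an infarct passes from an inflammatory phase with neutrophils and macrophages to a phase in which fibroblasts lay down and crosslink collagen. Cardiomyocytes of newborn mammals can still divide, a capacity that is lost soon after birth while their sarcomeres and mitochondria mature. The natriuretic peptides NPPA and NPPB are hormones that heart muscle releases under load and are used as markers of wall stress.

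The 6 infarcted libraries held 57822106 to 95559841 counts, and the 13 mitochondrially encoded genes took 16.6% to 26.2% of them. The cardiac muscle origin was visible in each library, with 2970 to 5500 CPM (the gene's reads scaled to a common library size) of the cardiac myosin binding protein MYBPC3. Pearson's r of log2 CPM across genes had a median of 0.957 over the 6 pairs of libraries of 1 day and of 0.967 over the 9 pairs that join the days, so libraries of 1 day were no more alike than others. There were 2 libraries that stood apart. Day 7 replicate 3 had 11.6 CPM of the unnamed gene ENSSSCG00000035520, against 3210 to 4060 CPM in the other 5, and the highest mitochondrial share. Day 14 replicate 2 had the highest collagen, inflammatory and epicardial list levels. Both libraries were singled out after the data were seen, the day 14 library by these list levels. A fall of those lists without that library was therefore set by the choice. For any other gene or list in which 1 of these libraries was the extreme of its day, the direction of the shift without it was likewise set.

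No gene passed the test between days 14 and 7 in infarcted hearts. edgeR's quasi-likelihood test with Benjamini-Hochberg adjustment called 0 of 15359 genes (0%) at an adjusted p under 0.05 in either direction, and the smallest adjusted p was 0.404. At an unadjusted p under 0.05, 432 genes were higher on day 14 (2.81%) and 193 lower (1.26%). The 3 day 14 values lay above all 3 day 7 values for 572 genes (3.72%) and below them for 601 (3.91%). The median standard error (SE) of a log2 fold change was 0.31, and the median log2 fold change over all genes was -0.01. DESeq2's Wald test called 24 genes higher (0.157%) and 9 lower (0.0588%), and limma voom called 0. Without the 4 libraries of the series with low ENSSSCG00000035520, edgeR called 2 genes lower (0.0127%), and without day 7 replicate 1 it called 1 lower (0.00652%). The libraries that stood apart weighed on the count of genes at an unadjusted p under 0.05: 176 instead of 432 genes were higher without day 14 replicate 2, and 124 were higher and 103 lower without both libraries. Without day 14 replicate 3 it was 646 higher and 369 lower. Since no gene was called by the main test, every gene below is given as higher or lower by its values, not as changed.

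**Figure D1:**
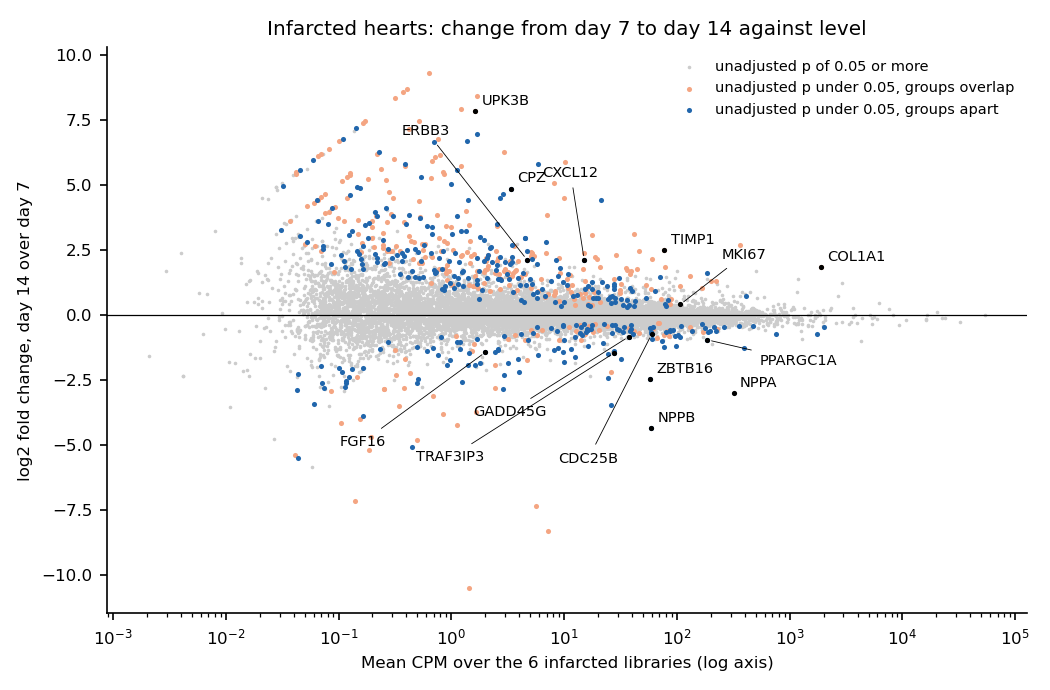
Log2 fold change of day 14 over day 7 in infarcted hearts (vertical axis) against the mean CPM of the 6 libraries (log axis), 1 point per tested gene. Blue points have an unadjusted p under 0.05 and groups that do not overlap, orange points an unadjusted p under 0.05 with overlapping groups, grey points the rest, and small black dots the genes with a printed name. NPPB lies at -4.37 and NPPA at -3.00, and 432 genes lie above and 193 below the zero line among the coloured ones.

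NPPB and NPPA, neighbouring natriuretic peptide genes, had lower means on day 14 than on day 7. NPPB (ENSSSCG00000003431) stood at 226, 80.8 and 34 CPM in the day 7 libraries and at 5.42, 8.04 and 3.01 CPM in the day 14 libraries. Every day 14 heart lay below every day 7 heart, and day 7 replicate 1 was the highest. The log2 fold change was -4.37 (SE 1.49, edgeR unadjusted p = 0.00961, adjusted p = 0.859), and it was -5.19 without the 2 libraries that stood apart. For NPPB these were the lowest day 7 heart and the highest day 14 heart, so a larger difference without them was set by the choice of libraries. NPPA (ENSSSCG00000003430) stood at 1400, 223 and 80.8 CPM on day 7 and at 18.7, 37.6 and 156 CPM on day 14. Its groups overlapped, because day 14 replicate 3 lay above day 7 replicate 3, and the log2 fold change was -3.00 (SE 1.57, edgeR unadjusted p = 0.0734). In naive hearts NPPB stood at 4.87, 78.8 and 13.8 CPM on day 7 and at 9.59, 22.3 and 15 CPM on day 14. Thus 1 of the 3 younger naive hearts lay within the range of the infarcted day 7 hearts. On day 14 every infarcted heart lay below every naive heart for NPPB. NPPA stood at 34.7, 313 and 24.3 CPM in naive hearts of day 7 and at 5.49, 18 and 38.4 CPM in those of day 14. Its naive log2 fold change was -2.59, beside -3.00 in infarcted hearts. The difference between the infarcted and the naive change was not called for either gene (edgeR unadjusted p = 0.0982 for NPPB and 0.845 for NPPA). In bulk tissue, fewer cells that express a gene and less of its RNA per cell cannot be told apart.

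The promoters of these 2 genes are shown because the pair lies together in the genome. Both genes are on the minus strand of chromosome 6 of the Sscrofa11.1 assembly, NPPA at chr6:71919557-71921345 and NPPB at chr6:71930374-71931843, with 9028 bases between them. The 250 bases before each annotated RefSeq start are given 5′ to 3′ along the gene, at chr6:71921346-71921595 for NPPA and chr6:71931844-71932093 for NPPB. Capitals mark matches, on either strand, to AGATAA or TGATAA (the letters bound by GATA factors), CATTCC (the M-CAT letters bound by TEAD factors), and TTTGAA or TTTAAA (letters of cell cycle homology regions).
NPPA: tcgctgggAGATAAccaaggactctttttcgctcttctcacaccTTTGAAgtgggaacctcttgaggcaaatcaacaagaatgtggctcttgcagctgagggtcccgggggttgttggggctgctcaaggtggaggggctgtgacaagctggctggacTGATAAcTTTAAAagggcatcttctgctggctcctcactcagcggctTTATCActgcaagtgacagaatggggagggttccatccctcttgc
NPPB: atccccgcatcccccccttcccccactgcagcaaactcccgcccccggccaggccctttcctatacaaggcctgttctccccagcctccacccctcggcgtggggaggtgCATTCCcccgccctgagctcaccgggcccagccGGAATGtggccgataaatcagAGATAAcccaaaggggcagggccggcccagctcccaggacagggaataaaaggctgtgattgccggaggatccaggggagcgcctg
NPPA held 1 match to AGATAA and 2 to TGATAA, and NPPB held 1 match to AGATAA and 2 to CATTCC, 140 and 107 bases before its start. Among 20664 annotated promoters of the same length, AGATAA was found in 8.64%, TGATAA in 6.61%, CATTCC in 10.4%, TTTGAA in 13% and TTTAAA in 11.4%. The GATA and M-CAT letters were chosen after the data were seen, and a match describes the sequence only. Neither promoter held CCAAT (32% of promoters), TATAAA (10.4%) or TGACTCA (3.04%).

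The genes first named for each direction were taken by small p among genes whose days did not overlap, so their lack of overlap was set by that choice. In the lower direction TRAF3IP3 (ENSSSCG00000032721), an adaptor that binds the signalling protein TRAF3, had the smallest p of all those named. It stood at 45.1, 38.5 and 39.3 CPM on day 7 and at 15.5, 14.6 and 14.5 CPM on day 14, a mean of 41.0 ± 3.62 against 14.9 ± 0.564 CPM (SD, n = 3 each). The log2 fold change was -1.46 (SE 0.27, edgeR unadjusted p = 4.42e-05, adjusted p = 0.404), and it was -1.48 without both libraries that stood apart. ZBTB16 (ENSSSCG00000030095), the zinc finger repressor PLZF, stood at 73.3, 71.2 and 148 CPM on day 7 and at 12.9, 17.7 and 21.5 CPM on day 14. Its day 7 mean was 5.62 times its day 14 mean, and its log2 fold change was -2.49 (SE 0.53, edgeR unadjusted p = 0.00021, adjusted p = 0.404). CRADD (ENSSSCG00000000910), a death domain adaptor, stood at 26.1, 24 and 39.8 CPM on day 7 and at 15.2, 13.6 and 13.4 CPM on day 14 (-1.09, SE 0.22). In the naive hearts TRAF3IP3 spanned 25.9 to 47.1 CPM, ZBTB16 46.4 to 80.2 CPM and CRADD 18.4 to 28.6 CPM over both days, so the infarcted day 14 values of each lay below those of all 6 naive hearts.

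Other low-p genes of this direction belonged to several functions. CDC25B, the phosphatase that activates CDK1 on entry into mitosis, stood at 63.6, 80.8 and 80.3 CPM on day 7 and at 41.3, 38.9 and 54.6 CPM on day 14 (log2 fold change -0.74, SE 0.18, edgeR unadjusted p = 0.000732). PACSIN2, a membrane bending protein, stood at 102, 110 and 102 CPM and then at 80.2, 60.8 and 63.9 CPM (-0.62, edgeR unadjusted p = 0.000832). SH3TC2, known for its part in nerve myelination, stood at 10.1, 8.74 and 7.5 CPM and then at 4.01, 2.45 and 2.51 CPM (-1.56, edgeR unadjusted p = 0.000353). UNC13D, which primes secretory granules for release, averaged 12.6 ± 4.77 CPM on day 7 and 5.12 ± 0.0872 CPM on day 14. PLEK2, an actin-linked pleckstrin protein, averaged 5.03 ± 3.81 and 0.686 ± 0.164 CPM, with day 7 replicate 1 at 1.03 CPM close to the day 14 hearts. RIOX2, a ribosomal oxygenase, averaged 138 ± 30.1 and 76.5 ± 21.4 CPM, DAPL1 16.2 ± 2.11 and 8.9 ± 2.57 CPM, and RGSL1 2.56 ± 2.14 and 0.66 ± 0.0346 CPM. DESeq2 called TRAF3IP3, ZBTB16, CRADD, PLEK2, SH3TC2 and PACSIN2 lower, with adjusted p from 0.00107 to 0.0364. The remaining gene among the 12 with the smallest p is not named, since its symbol is carried by 2 gene IDs.

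Among genes that regulate cardiac growth and metabolism, PPARGC1A, the coactivator PGC-1 alpha that drives mitochondrial gene expression, stood at 170, 315 and 256 CPM on day 7 and at 160, 90.1 and 129 CPM on day 14 (log2 fold change -0.97, SE 0.28, edgeR unadjusted p = 0.00356, adjusted p = 0.731). FGF16, a growth factor made by heart muscle, stood at 2.94, 2.86 and 2.98 CPM on day 7 and at 1.72, 0.579 and 0.942 CPM on day 14 (-1.44, SE 0.45, edgeR unadjusted p = 0.00488). The day 7 hearts were nearly equal for FGF16, whereas for PPARGC1A the gap between the groups was 170 against 160 CPM. IGF1R, the receptor of insulin-like growth factor 1, stood at 105, 107 and 153 CPM and then at 71.5, 54.4 and 84.1 CPM (-0.80, edgeR unadjusted p = 0.0198), and the log2 fold change was -0.45 without both libraries that stood apart. ERBB3, a neuregulin receptor, went the other way, with 1.58, 2.65 and 1 CPM on day 7 and 8.85, 9.05 and 4.95 CPM on day 14 (2.12, SE 0.61, edgeR unadjusted p = 0.00313). ERBB3 is expressed in Schwann cells, whose markers are given below. In the list of 33 cardiac growth regulators, 1 was higher (ERBB3) and 2 were lower (FGF16 and GATA6) at an unadjusted p under 0.05, as were 2.81% and 1.26% of all tested genes, and the median of -0.09 was 0.05 without both libraries.

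**Figure D2:**
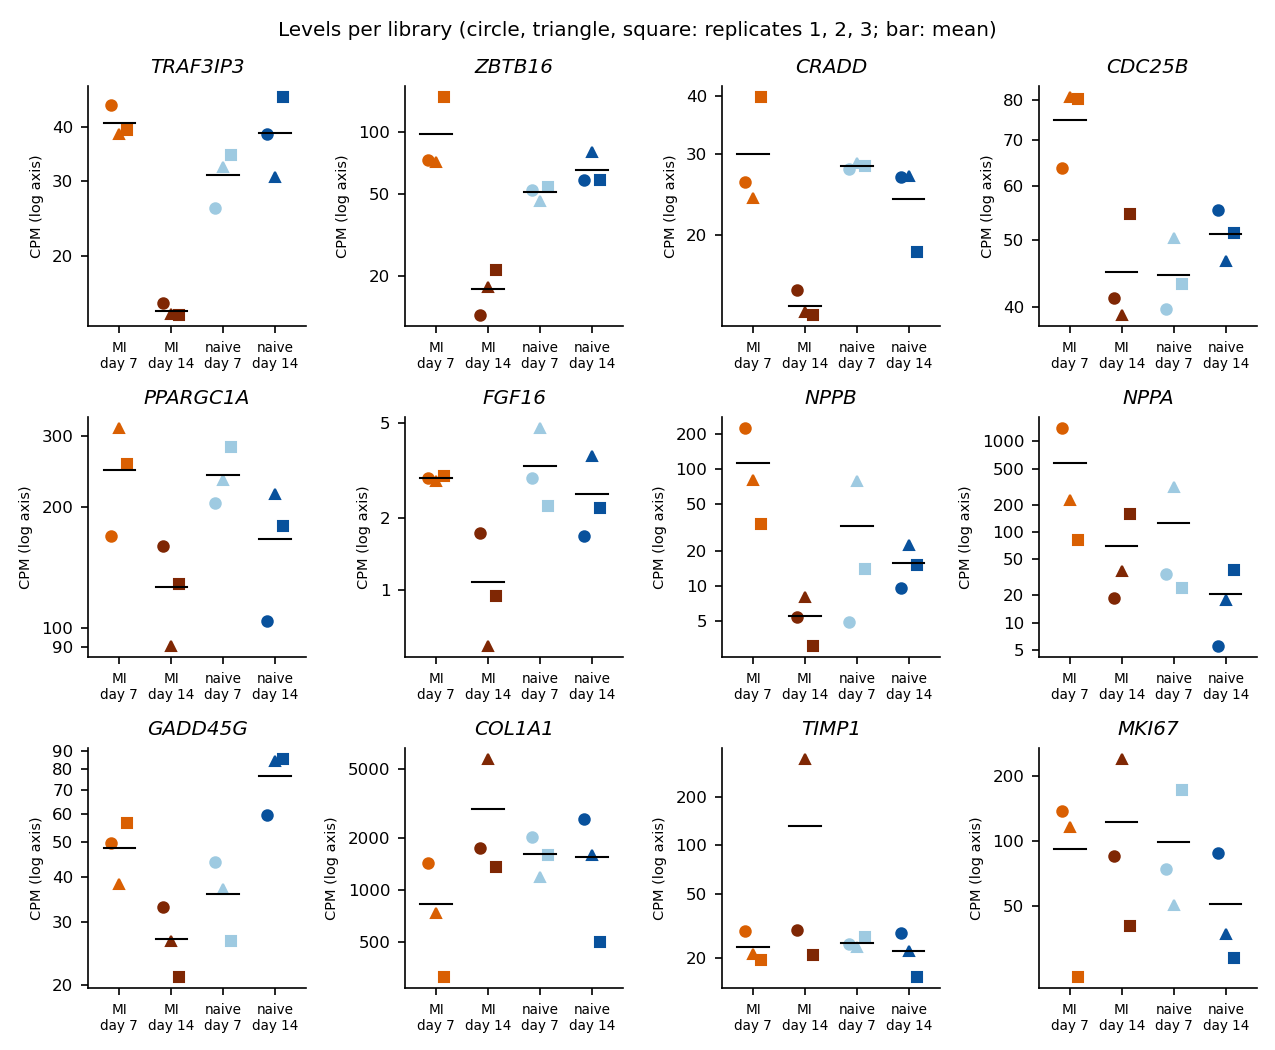
CPM (log axis) of 12 genes in each infarcted (MI) and naive library of days 7 and 14, with circles, triangles and squares for replicates 1, 2 and 3 and a bar for the mean of 3. TRAF3IP3, ZBTB16, CRADD, CDC25B, PPARGC1A, FGF16, NPPB and GADD45G do not overlap between infarcted days 7 and 14, whereas TIMP1 is high in day 14 replicate 2 only (343 CPM) and MKI67 overlaps.

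In the higher direction ADRA1D (ENSSSCG00000007139), the alpha 1D adrenergic receptor of smooth muscle, stood at 3.48, 1.97 and 1.58 CPM on day 7 and at 10, 10.1 and 7.48 CPM on day 14 (log2 fold change 1.97, SE 0.46, edgeR unadjusted p = 0.000457, adjusted p = 0.55). NKD1 (ENSSSCG00000039875), an inhibitor of Wnt signalling, stood at 1.99, 1.17 and 0.911 CPM and then at 3.59, 9.43 and 3.82 CPM (2.04, SE 0.46, edgeR unadjusted p = 0.000397). CPZ (ENSSSCG00000032151), a secreted carboxypeptidase that binds Wnt proteins, stood at 0.199, 0.247 and 0.224 CPM and then at 1.78, 15.9 and 1.89 CPM (4.85, SE 1.00, edgeR unadjusted p = 0.000154, adjusted p = 0.404). For ADRA1D, NKD1 and CPZ alike, day 14 replicate 2 was the highest library. Without it their log2 fold changes were 1.45 and 3.02, and that of ADRA1D was 1.90.

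ITGB4, the integrin subunit of hemidesmosomes, averaged 5.44 ± 2.21 CPM on day 7 and 16 ± 6.91 CPM on day 14. SLIT2, a guidance ligand of ROBO receptors, averaged 2.12 ± 0.623 and 6.46 ± 2.53 CPM, and EPHA3, an ephrin receptor, 1.04 ± 0.468 and 7.97 ± 6.37 CPM. SPECC1 averaged 16.7 ± 5.72 and 44.3 ± 15.6 CPM. These 4 genes kept log2 fold changes of 1.22 (ITGB4) to 2.93 (EPHA3) without day 14 replicate 2. ANPEP, a membrane aminopeptidase, had 2.89, 6.09 and 1.28 CPM on day 14 against 0.381 to 0.99 CPM on day 7. CRB2, a polarity protein of epithelia, KRT7, a keratin of simple epithelia, and ADAMDEC1, a secreted protease, rested mostly on day 14 replicate 2, with 6.25, 7.68 and 9.84 CPM in it and at most 0.383 CPM in the other infarcted hearts. Over all 432 genes that were higher at an unadjusted p under 0.05, day 14 replicate 2 was the highest library for 319 (73.8%). Among all tested genes whose highest library was of day 14, it was the highest for 39.2%. Day 7 replicate 3 was the highest for 120 (62.2%) of the 193 lower genes, and for 54.7% of all tested genes whose highest library was of day 7. What sets these 2 hearts apart was not tested.

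**Figure D3:**
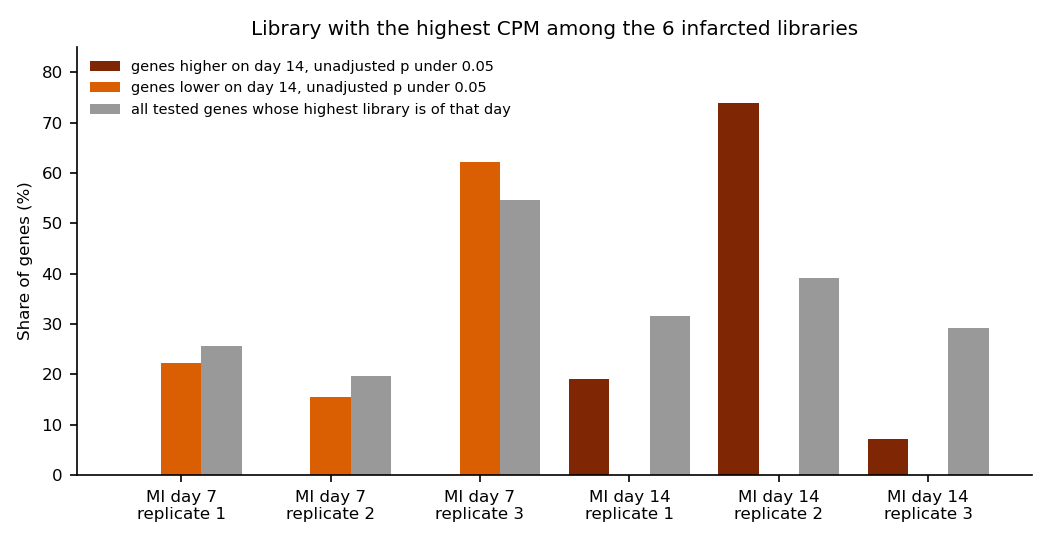
Share of genes (vertical axis, %) for which each of the 6 infarcted libraries had the highest CPM, for genes higher on day 14 and lower on day 14 at an unadjusted p under 0.05 and, in grey, for all tested genes whose highest library is of that day. Day 14 replicate 2 reaches 73.8% of the higher genes beside 39.2% in grey, and day 7 replicate 3 62.2% of the lower genes beside 54.7%.

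Collagen and scar genes had positive medians, which turned slightly negative without the 2 libraries that stood apart. For both lists these were the infarcted libraries with the highest and the lowest mean level. A smaller difference without them was thus set by the choice of libraries, and it does not test the rest. Of 28 collagen and matrix genes, 26 had a positive log2 fold change with a median of 0.60, 4 were higher at an unadjusted p under 0.05 (2.81% of all tested genes were), and 0 were called or had days that did not overlap. COL1A1, a chain of type I collagen, stood at 1440, 737 and 314 CPM on day 7 and at 1760, 5730 and 1360 CPM on day 14 (log2 fold change 1.83, SE 0.80, edgeR unadjusted p = 0.0363, adjusted p = 1). COL3A1, a chain of type III collagen, stood at 3110, 1740 and 428 CPM and then at 2410, 6600 and 3310 CPM (1.22, edgeR unadjusted p = 0.142). Day 14 replicate 2 was the highest and day 7 replicate 3 the lowest library for both. Without both libraries the median of the list was -0.09, with 11 genes positive and 17 negative, COL1A1 had 0.52 and COL3A1 0.24. FBLN1, fibulin 1 of elastic fibres, and FMOD, a proteoglycan that binds collagen fibrils, were at 593 and 237 CPM in day 14 replicate 2 and at most at 189 and 47.2 CPM elsewhere in the infarcted group.

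Of 31 scar and matricellular genes, 3 were higher and 1 lower at an unadjusted p under 0.05 (2.81% and 1.26% of all tested genes), with a median of 0.61 that became -0.12 without both libraries. LOX, which crosslinks collagen, stood at 51.5, 29.4 and 31.7 CPM on day 7 and at 61.4, 172 and 78 CPM on day 14 (log2 fold change 1.47, SE 0.48, edgeR unadjusted p = 0.00714), and the days did not overlap. The value for LOX was 0.79 without both libraries. TIMP1, an inhibitor of matrix metalloproteases, stood at 29.4, 21.2 and 19.5 CPM and then at 30, 343 and 20.8 CPM, so that only day 14 replicate 2 lay outside the common range. Its log2 fold change was 2.49 (edgeR unadjusted p = 0.00306) with that library and 0.12 without it. POSTN, a matricellular protein of activated fibroblasts, stood at 232, 65.5 and 29.3 CPM and then at 129, 371 and 145 CPM, and overlapped, with a log2 fold change of -0.12 without both libraries. SPP1, osteopontin, stood at 53.6, 20.8 and 21.2 CPM and then at 10.7, 58.1 and 22.7 CPM (-0.06, edgeR unadjusted p = 0.918). The 14 fibroblast markers had a median of 0.55, with DPT, dermatopontin, at 0.74 and TCF21, a fibroblast transcription factor, at 0.61. The fibroblast median was 0.28 without day 14 replicate 2 and 0.15 without both libraries, where DPT had 0.10 and TCF21 0.08. Here too these were the highest and the lowest infarcted library, so the smaller values were set by the choice. In the TGF beta and BMP list, ID2, a BMP target, averaged 10.2 ± 2.91 and 22.1 ± 9.82 CPM, and FST, follistatin, 0.203 ± 0.0816 and 0.865 ± 0.485 CPM, both with days apart and neither called. Without both libraries ID2 had a log2 fold change of 0.48 and FST of 1.52.

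Inflammatory genes were high in 1 day 14 heart. Of 27 cytokine and adhesion genes, 7 were higher at an unadjusted p under 0.05 (2.81% of all tested genes were) and the median log2 fold change was 0.80. Without day 14 replicate 2 the median was -0.06, with 1 higher and 1 lower, as were 176 and 151 of all tested genes. The mean log2 CPM of the list was 3.23 in that library and 1.52 to 1.67 in the other 5. CXCL12, a chemokine of stromal cells, stood at 7, 6.37 and 3.58 CPM on day 7 and at 16.4, 46.9 and 10.2 CPM on day 14 (2.12, SE 0.61, edgeR unadjusted p = 0.00295), and it did not overlap. CXCL12 had 0.99 without both libraries that stood apart. CXCL14, another chemokine, was at 6.99 CPM in day 14 replicate 2 and at most at 0.616 CPM elsewhere, and CCL2, which draws monocytes, at 23.1 against at most 11.7 CPM.

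The 26 macrophage and monocyte markers had a median of 0.15, and the median was -0.32 without day 14 replicate 2. Of them 0 had an unadjusted p under 0.05, beside 2.81% higher and 1.26% lower among all tested genes. CD163, a macrophage scavenger receptor, spanned 33.9 to 110 CPM on day 7 and 17.1 to 92.6 CPM on day 14, and C1QA, a complement subunit made by macrophages, 41.2 to 84.5 and 25.1 to 93 CPM. CD74, which accompanies MHC class II, averaged 316 ± 138 and 579 ± 277 CPM, and its log2 fold change was 0.09 without both libraries. MARCO, a receptor of some macrophages, was at 19.3 CPM in day 14 replicate 2 and at most at 1.89 CPM elsewhere. The neutrophil list was high in 2 hearts of different days, with a summed 110 CPM in day 14 replicate 2 and 43.5 CPM in day 7 replicate 3 against 6.34 to 11 CPM in the other 4. LCN2, a neutrophil granule protein also made by stressed tissue, held most of it in day 14 replicate 2 (80.9 CPM), and CXCL8, which attracts neutrophils, was at 4.46 CPM there. CD3E, a T cell receptor chain, was low, at 0.723, 0.216 and 0.172 CPM on day 7 and at 1.14, 1.74 and 0.412 CPM on day 14. CD8B was at most at 0.217 CPM. Of the 20 lymphocyte markers, 18 had positive log2 fold changes (median 1.04, 0.68 in naive hearts). The lymphocyte median was 0.52 without day 14 replicate 2 and 0.24 without both libraries. These were the highest and the lowest infarcted library of the lymphocyte list, so a smaller median without them was set by the choice.

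**Figure D4:**
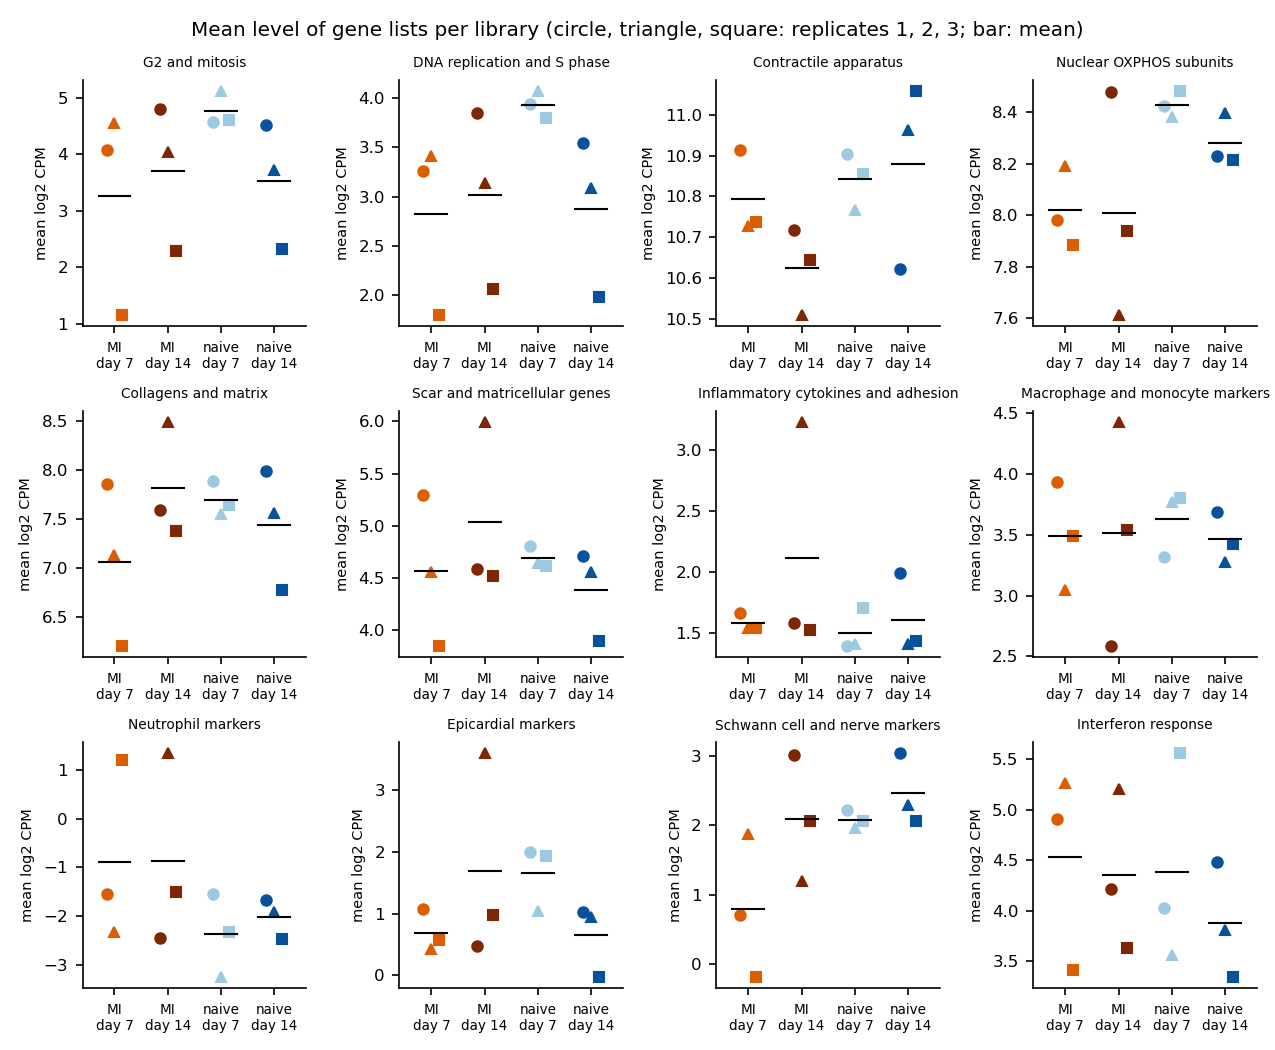
Mean log2 CPM of 12 gene lists in each infarcted (MI) and naive library of days 7 and 14, with circles, triangles and squares for replicates 1, 2 and 3 and a bar for the mean of 3. Infarcted day 14 replicate 2 is the highest for collagens (8.49), inflammatory genes (3.23) and epicardial markers (3.61), and infarcted day 7 replicate 3 the lowest for G2 and mitosis (1.16).

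Markers of epicardial and of Schwann cells were also measured. The epicardium is the outer cell layer of the heart, and its list had a mean log2 CPM of 3.61 in day 14 replicate 2 and of 0.43 to 1.08 in the other 5 infarcted hearts. UPK3B stood at 9.34 CPM in that library and at most at 0.363 CPM in the others, and BNC1 at 4.4 and at most 0.137 CPM, and both are markers of the mesothelial layer. These genes lay beside the collagen and inflammatory genes in the same heart, and their part in those results was not tested. Of 9 epicardial markers tested, 4 were higher at an unadjusted p under 0.05 (2.81% of all tested genes were), and 0 without that library. Schwann cell and nerve markers had a median of 1.43 over 9 genes, 8 of them positive, and 1.20 without both libraries that stood apart. The mean log2 CPM of this list was 0.71, 1.87 and -0.19 on day 7 and 3.00, 1.20 and 2.06 on day 14, so the days overlapped. The naive median was 0.365, and the naive hearts spanned 1.952 to 3.035 in mean log2 CPM. NGFR, a neurotrophin receptor, stood at 2.38, 2.96 and 0.37 CPM on day 7 and at 9.01, 13.3 and 3.31 CPM on day 14 (log2 fold change 2.16, edgeR unadjusted p = 0.0141). NGFR was apart between days, its highest heart was day 14 replicate 2, and its value was 1.20 without both libraries.

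Endothelial and smooth muscle lists had small positive medians. VWF, a clotting factor of endothelium, averaged 200 ± 40.1 CPM on day 7 and 309 ± 57.5 CPM on day 14, and ENG, endoglin, 224 ± 22.3 and 304 ± 54.7 CPM. Both were apart between days at unadjusted p of 0.0746 and 0.0886. The 22 endothelial markers had a median of 0.14 (0.37 in naive hearts) and the 18 smooth muscle and pericyte markers 0.18 (0.29 in naive hearts). Of the latter, MYH11 had 0.95 and LMOD1 0.92 (edgeR unadjusted p = 0.0729 and 0.0903), beside 0.945 and 0.912 in naive hearts. Among angiogenic factors, PDGFA averaged 22.1 ± 3.6 and 32.7 ± 4.78 CPM with days apart, and ANGPT1 4.06 ± 2.96 and 1.54 ± 0.772 CPM with days that overlapped. The atrial list of 11 had 2 higher members at an unadjusted p under 0.05 (2.81% of all tested genes were), the nuclear receptors NR2F1 (1.35 ± 0.66 to 5.3 ± 2.84 CPM) and NR2F2 (25.1 ± 3.19 to 38.7 ± 8.82 CPM), and a median of -0.29, which was -0.04 without both libraries that stood apart. The adipocyte list had a median of 0.01 and of 0.62 without both libraries, with ADIPOQ at 2.16 CPM in day 14 replicate 1 and at most 0.121 CPM in the others, and PCK1 at 0.317 CPM in replicate 1 and listed at 0 in the other 5. Erythroid genes had a median of 0.13, with EPB42 and HBM overlapping between days, and skeletal muscle genes -0.10, with CASQ1 and MYH3 overlapping.

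The direction of the proliferation genes turned with the libraries used and with the tool. Of 37 genes of G2 and mitosis, 35 had a positive log2 fold change (median 0.23), but without day 7 replicate 3 only 2 did and the median was -0.27. The G2 and mitosis median was -0.42 without day 14 replicate 1, -0.25 without the 4 libraries with low ENSSSCG00000035520 and -0.26 with limma voom, and it reached 0.85 without day 7 replicate 2. The mean log2 CPM of the list was 4.08, 4.55 and 1.16 on day 7 and 4.80, 4.04 and 2.29 on day 14, so replicate 3 of each day lay below the other 2. For the 37 genes of DNA replication the median was 0.16 with all libraries, -0.10 without day 7 replicate 3, -0.34 without day 14 replicate 1, -0.08 without the 4 libraries and -0.11 with limma voom. MKI67, a marker of dividing cells, stood at 138, 116 and 23.5 CPM on day 7 and at 85.8, 240 and 40.4 CPM on day 14 (0.40, SE 0.80, edgeR unadjusted p = 0.624). TOP2A, a topoisomerase of mitotic chromosomes, stood at 77.2, 106 and 4.84 CPM and then at 119, 67.7 and 20.1 CPM, and CCNB1, the mitotic cyclin, at 19.8, 34.9 and 1.37 CPM and then at 41, 21.5 and 5.27 CPM. The spread within each day was wider than the difference between days for all 3. CDC25B was the 1 member with an unadjusted p under 0.05, and it was lower. Its relative CDC25C had 0.57, and the replication factors CDC45 and GINS4 had 0.58 and 0.67, with overlapping days.

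Of the G1 genes, GADD45G, which is induced by stress and slows the cell cycle, stood at 49.9, 38.2 and 56.5 CPM on day 7 and at 33, 26.6 and 21 CPM on day 14 (log2 fold change -0.84, SE 0.26, edgeR unadjusted p = 0.00544). MEIS1, a transcription factor that restrains cardiomyocyte division in mice, stood at 0.885, 1.35 and 3.02 CPM and then at 11, 11.9 and 2.42 CPM (2.27, SE 0.67, edgeR unadjusted p = 0.00356). GADD45G was apart between days, and MEIS1 overlapped through replicate 3 of each day. CCND2, the cyclin D2 gene, stood at 236 to 247 CPM on day 7 and 171 to 250 CPM on day 14, and CDKN1A, the inhibitor p21, at 6.19 to 9.5 and 3.74 to 8.15 CPM.

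Genes of the contractile apparatus mostly had small negative values. Of 23 tested, 19 had a negative log2 fold change (median -0.20), 5 were lower with days apart (3.91% of all tested genes were), and 1, the Z disc gene NEBL, was lower at an unadjusted p under 0.05 (1.26% of all tested genes were). NEBL stood at 2020, 2070 and 2910 CPM on day 7 and at 1580, 1560 and 1870 CPM on day 14 (-0.48, SE 0.19, edgeR unadjusted p = 0.0239). Without both libraries that stood apart NEBL had -0.25. Without day 14 replicate 2 the median of the list was -0.05, with 11 genes positive and 12 negative. The row named MYH7 stood at 32100, 32100 and 41700 CPM and then at 31500, 26100 and 28900 CPM (-0.29, edgeR unadjusted p = 0.359). A reference table of names gives its ID (ENSSSCG00000002029) to MYH6, so which of the 2 cardiac myosin heavy chains it counts is uncertain. MYBPC3 had -0.33, and TNNI1, the slow troponin I of fetal heart, stood at 913, 730 and 958 CPM and then at 903, 274 and 870 CPM, low in day 14 replicate 2. In the calcium and conduction list the potassium channel KCNQ1 averaged 111 ± 31.9 and 73.3 ± 13 CPM (-0.60, edgeR unadjusted p = 0.0266, and -0.23 without both libraries), and the calcium channel CACNA1C 125 ± 57.1 and 79.5 ± 25 CPM.

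The signs of the metabolic lists turned with the libraries used. The 28 genes of fatty acid oxidation had a median of -0.09 that became 0.09 without day 14 replicate 2, with CPT1B, the mitochondrial fatty acid gate, at 529, 614 and 574 CPM and then at 602, 367 and 508 CPM, and FABP3, a fatty acid carrier, at 536 ± 67.5 and 391 ± 141 CPM. The 30 nuclear subunits of oxidative phosphorylation had a median of 0.03 with 19 positive, and NDUFB5 and NDUFB8 overlapped between days. Without day 14 replicate 2 all 30 were positive with a median of 0.20, without both libraries all 30 were positive with 0.16, and without day 7 replicate 3 alone 12 were positive with -0.04. For genes encoded in the mitochondrial genome the median was -0.13, and it became 0.22 without day 7 replicate 3, where ND1 stood at 12400 CPM against 2290 to 3450 CPM in the other 5 and ATP8 at 3670 against at most 1040 CPM. In glycolysis the median was 0.15 (-0.07 without day 7 replicate 3), with PFKFB3 at 7.35 ± 0.239 and 11.9 ± 3.95 CPM and ALDOC, an aldolase, at 18.6 ± 6.23 and 59.2 ± 52.3 CPM.

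In the list of 22 heat shock and folding genes, 3 were higher with days apart (3.72% of all tested genes were). Among stress response genes, 2 that serve protein folding in the endoplasmic reticulum were higher with days apart. HSP90B1, a chaperone of that compartment, stood at 292, 374 and 261 CPM on day 7 and at 396, 421 and 694 CPM on day 14 (log2 fold change 0.71, SE 0.24, edgeR unadjusted p = 0.0103, adjusted p = 0.877). XBP1, a transcription factor of the unfolded protein response, stood at 80.3, 78 and 44 CPM and then at 87, 113 and 103 CPM (0.58, edgeR unadjusted p = 0.0217), and had 0.26 without both libraries. The list of 22 heat shock and folding genes had a median of 0.34 (0.22 without both libraries that stood apart), with 2 higher at an unadjusted p under 0.05 (2.81% of all tested genes were) and 0 lower. Of the immediate early genes, NR4A1 and FOS were high in day 14 replicate 3, with NR4A1 at 409 CPM against 20.7 to 86.3 CPM and FOS at 61.7 against 5.3 to 15.8 CPM in the other 5. EGR1 averaged 84.6 ± 52.9 and 44.2 ± 13.9 CPM and BTG2 63.9 ± 9.57 and 107 ± 61.3 CPM. Interferon response genes had a median of -0.35 in infarcted and -0.705 in naive hearts. Of 27 genes, 19 and 24 had negative values. In naive hearts the mean log2 CPM of the list was 4.02, 3.56 and 5.56 on day 7 and 4.48, 3.82 and 3.35 on day 14. The naive days thus overlapped, and naive day 7 replicate 3 was the highest heart. In infarcted hearts 0 of the list had an unadjusted p under 0.05, beside 2.81% higher and 1.26% lower among all tested genes. Without both libraries that stood apart the infarcted median was -1.08. In that setting 5 were lower at an unadjusted p under 0.05, as were 103 of all tested genes. For this list the libraries left out were the lowest of day 7 (mean log2 CPM 3.42) and the highest of day 14 (5.20). The deeper fall without them was thus set by the choice of libraries, and the 5 genes do not test it. MX2, an antiviral effector, stood at 88.7, 141 and 26.6 CPM and then at 55, 62.1 and 29 CPM, and USP18, which limits interferon signalling, at 39.2, 14.8 and 5.19 CPM and then at 7.66, 16.8 and 5.87 CPM. The imprinted and fetal growth list had a median of -0.05, with DLK1 at 2.01 ± 1.76 and 6.9 ± 5.25 CPM.

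The naive hearts of the same ages, which share no library with the infarcted ones, asked how much of the difference accompanies age alone. edgeR called 0 of 15359 genes (0%) between naive day 14 and day 7 hearts, with 937 higher (6.1%) and 420 lower (2.73%) at an unadjusted p under 0.05 and a smallest adjusted p of 0.117. DESeq2 called 90 and limma voom 918. The test of the difference between the infarcted and the naive change called 1 gene, lower in the infarcted hearts (0.00651%), with 383 higher (2.49%) and 703 lower (4.58%) at an unadjusted p under 0.05. The called gene, ENSSSCG00000035617, has no symbol in the tables used here. It stood at 62.4, 33.6 and 50.2 CPM in infarcted day 7 hearts and at 14, 15.2 and 15.4 CPM on day 14. In naive hearts it stood at 8.87, 9.67 and 13.7 CPM on day 7 and at 29.6, 44.2 and 57.2 CPM on day 14. The 2 changes ran in opposite directions without overlap, and their difference was -3.74 on the log2 scale (edgeR adjusted p = 0.0236). With a term for the 4 libraries that share the low ENSSSCG00000035520 the adjusted p was 0.0523, and leaving out single infarcted libraries gave 0.0188 to 0.148.

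GADD45G had the same crossed pattern below the threshold. It was lower on day 14 in infarcted hearts and stood at 44.2, 37.1 and 26.5 CPM on day 7 and at 59.8, 84.3 and 85.5 CPM on day 14 in naive hearts. The difference of its changes was -1.93 (edgeR unadjusted p = 8.04e-05). TRAF3IP3 had a difference of -1.79 (edgeR unadjusted p = 0.000179), ZBTB16 of -2.85 (edgeR unadjusted p = 0.00105), CDC25B of -0.94 (edgeR unadjusted p = 0.00178) and NEBL of -1.10 (edgeR unadjusted p = 0.000986), none called. PPARGC1A and RIOX2 were lower on day 14 in naive hearts too, by -0.53 and -0.89, and their differences were -0.43 and 0.04. In the higher direction the smallest p of the difference belonged to CRB2, TUBB3, a neuronal tubulin, KRT7 and DRP2, none of which was called. Of these, CRB2 and KRT7 were at 0.541 and 1.05 CPM in naive day 7 replicate 1 and at most at 0.11 CPM in naive day 14 hearts, while their infarcted change rested on day 14 replicate 2. TUBB3 was at most at 1.42 CPM and DRP2 at most at 0.396 CPM in these 12 libraries.

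The proliferation lists had lower medians in naive than in infarcted hearts when all libraries were used. G2 and mitosis genes had a median of 0.23 in infarcted and -1.02 in naive hearts, and DNA replication genes 0.16 and -0.91. Of the replication genes, 0 and 15 were lower at an unadjusted p under 0.05 (1.26% and 2.73% of all tested genes were). The naive day 7 hearts were alike in the mitotic list, with mean log2 CPM of 4.57, 5.12 and 4.61, and the naive day 14 hearts spread over 4.53, 3.73 and 2.33. The lowest of these, naive day 14 replicate 3, shares the low ENSSSCG00000035520 of infarcted day 7 replicate 3, so the lowest heart fell in the older group of the naive and in the younger group of the infarcted hearts. At an unadjusted p under 0.05 the difference of changes was higher for 3 replication genes and lower for 0. Among mitotic genes it was higher for 2 and lower for 1, CDC25B. Of all tested genes, 2.49% were higher and 4.58% lower, and no gene of either list was called. Contractile genes had a median of -0.20 in infarcted and 0.21 in naive hearts, and collagen genes 0.60 and -0.16.

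**Figure D5:**
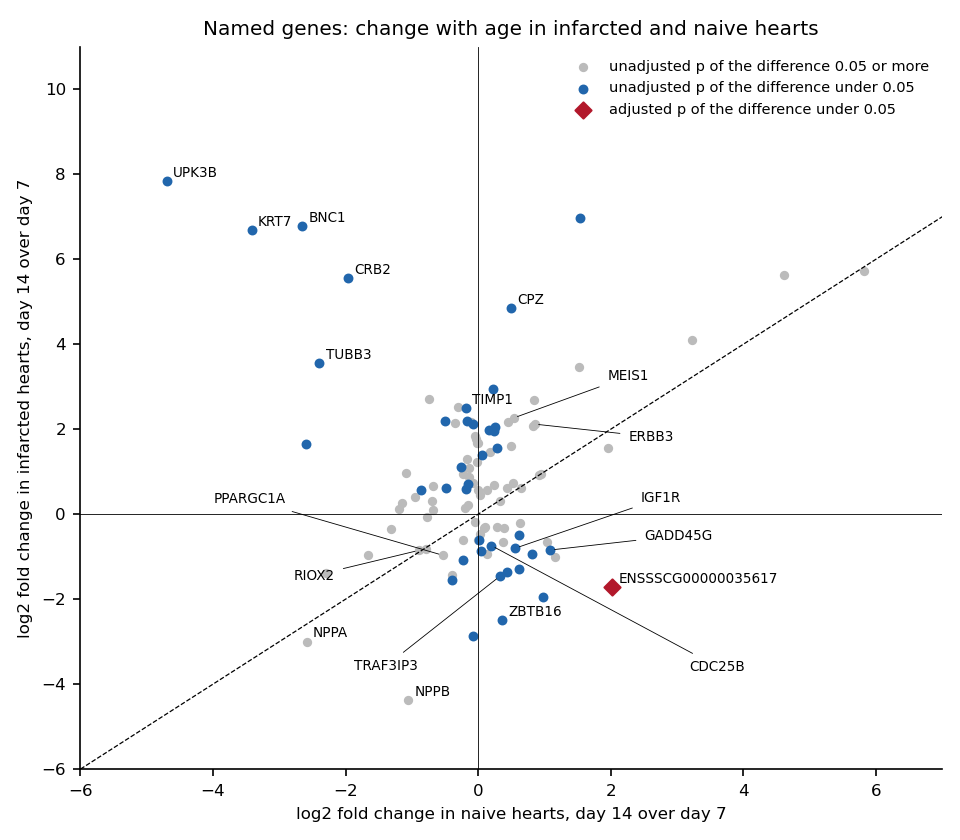
Log2 fold change of day 14 over day 7 in infarcted hearts (vertical axis) against that in naive hearts (horizontal axis) for the named genes, with the dashed line where both are equal. The diamond is ENSSSCG00000035617 (-1.71 and 2.02), the gene called for the difference, and blue points have an unadjusted p of the difference under 0.05.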

How the data were processed

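RNA of 21 pig hearts was sequenced, and the authors deposited raw read counts for 25880 genes, with 1 column of whole numbers for each library. The submitters' processing notes name Trim Galore, STAR 2.5.2, HTSeq 0.6.1 and DESeq2 as tools and Sscrofa11.1 as the build. No source used here gives the annotation release or the strand setting, so reads of overlapping or antisense genes and of near-identical copies may be misassigned. Symbols came from the deposited table (17947 genes) or by ID from a reference table (807 more). By the sample titles each library is a different pig.

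From the deposited counts, genes were filtered with filterByExpr of edgeR 4.0.16 (15359 kept), scaled by TMM and fitted with 1 mean per group over all 8 groups (glmQLFit, robust, 13 residual degrees of freedom). Contrasts were tested two-sided with the quasi-likelihood F-test and Benjamini-Hochberg adjustment over all genes. SE came from the F statistic. CPM are TMM-scaled. Total counts were 57822106 to 95559841 in the infarcted libraries. List levels are means of log2 CPM with a prior count of 2. DESeq2 1.42.0 and limma 3.58.1 (voom with sample weights) were alternatives, beside other scalings, filters and left-out libraries. The fit was also run on simulated counts. These held no library set and no outlying heart, so that run does not show how the test behaves with them.

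The comparison, the gene lists and the named genes were chosen with earlier results of these data known. The naming rule took a set of 27 heart genes, the 2 smallest p of each of the 32 lists where no member was called, the 12 smallest p in each direction among genes at 1 CPM or more with days that did not overlap, and the smallest p of the difference between infarcted and naive changes. Of 723 listed symbols, 684 were matched and 659 tested. MYH6, IGF2 and HMGA2 had no matching entry under those names, and TNNI3 was listed at 0 in every library and not tested. Names outside the rule (GATA6, LIPM, MOXD1, HDC, CFI) were chosen after their values were seen. Promoter sequences are RefSeq, Sscrofa11.1. Motif searches over called genes were not run, as 0 genes were called. Results of 2 genes that met the naming rule are not reported here.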

Additional observations from a re-analysis of the deposited data

Results flagged for a closer look

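The unnamed gene ENSSSCG00000035617 drew attention because its change from day 7 to day 14 differed between infarcted and naive hearts by the interaction test, with a difference of -3.74 on the log2 scale (edgeR quasi-likelihood test, adjusted p = 0.0236). All 3 infarcted hearts were lower on day 14 than all 3 of day 7, and all 3 naive hearts of day 14 were higher than all 3 of day 7. Its infarcted change alone was -1.71 (SE 0.36, unadjusted p = 0.000201, adjusted p = 0.404) and its naive change 2.02. DESeq2 called the difference as well (adjusted p = 2.96e-08), and limma voom did so too (adjusted p = 0.00932). Over 16 alternatives the difference ranged from -3.94 to -3.36, and its adjusted p from 2.96e-08 to 0.35. The difference was called in only 8 of the 16.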

How the results depend on the processing

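Of the infarcted comparison, 0 calls became 33 with DESeq2 (24 higher and 9 lower), 2 lower without the 4 libraries with low ENSSSCG00000035520 (LIPM and ZBTB16), and 0 to 1 when single infarcted libraries were left out (PLEK2, lower, without day 7 replicate 1). They were 0 under limma voom, both other scalings, both other filters and the remaining alternatives. Genes higher at an unadjusted p under 0.05 numbered 280 in the 6 libraries alone, 176 to 646 with single libraries left out and 124 without both libraries that stood apart, a setting chosen after seeing the data. Lower ones numbered 139 to 369 and 103. The naive calls were 90 with DESeq2 and 918 with limma voom. The calls of the difference were 27 with DESeq2, 5 with limma voom, 0 with a term for the 4 libraries, 0 to 1 with single libraries left out and 0 without both. The cause was not tested. Over 106 named genes and 1782 values under the alternatives, 54 had the opposite sign, and 87 genes never did. The log2 fold changes of opposite sign were as follows. Limma voom gave 0.12 for ATP8, -0.34 for C1QA, -0.18 for CCNB1, -0.29 for MKI67, 0.012 for ND1, -0.047 for NR4A1 and -0.14 for TOP2A. A term for the 4 libraries gave 0.22 for ATP8, 0.22 for CD163 and 0.14 for ND1. Without those 4 libraries the values were 0.34 for ATP8, -0.003 for C1QA, -0.26 for CCNB1, 0.16 for CD163, -0.025 for MKI67, 0.23 for ND1 and -0.40 for TOP2A. Without both libraries that stood apart they were 0.45 for ATP8, -0.45 for C1QA, -0.45 for CCL2, -0.25 for CCNB1, 0.06 for CD163, -0.11 for FMOD, -1.14 for MARCO, -1.01 for MKI67, 0.35 for ND1, -0.12 for POSTN, 0.11 for TNNI1 and -0.40 for TOP2A. With single infarcted libraries left out the log2 fold change spanned -1.34 to 0.33 for ATP8, -0.33 to 0.47 for C1QA, -0.61 to 0.69 for CCL2, -0.49 to 1.09 for CCNB1, -0.82 to 0.14 for CD163, -1.32 to 4.30 for CXCL8, -0.30 to 1.59 for FOS and -1.95 to 3.52 for MARCO. It spanned -0.55 to 0.81 for MKI67, -1.39 to 0.22 for ND1, -0.10 to 0.40 for NDUFB5, -0.076 to 0.32 for NDUFB8, -0.96 to 2.41 for NR4A1, -0.93 to 0.54 for SPP1, -0.60 to 0.032 for TNNI1, -0.52 to 0.74 for TOP2A and -1.55 to 0.019 for USP18. No paired analysis was possible because the replicate numbers name different pigs in each group and pair no animals. Values of genes near 0 CPM rest on few counts.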

Other observations

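LIPM, a gene of the lipase family chosen here after its values were seen, was either present or at 0. It stood at 5.66 and 2.94 CPM in infarcted day 7 replicates 1 and 2 and at 0 in replicate 3, and it was at 0 in all 3 infarcted day 14 hearts. In naive hearts it stood at 5.33, 5.44 and 4.6 CPM on day 7 and at 3.6, 6.8 and 0 CPM on day 14. The libraries at 0 were thus all 3 infarcted day 14 hearts and, in the other 3 groups, the 2 that share the low ENSSSCG00000035520. Its fitted log2 fold change of -10.5 in infarcted hearts (edgeR unadjusted p = 0.000736, adjusted p = 0.565) depends on the prior count and is not a measure of size.

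DESeq2's Wald test called further genes higher on day 14 that the rule for names did not reach, of which 3 are given here after their values were seen. MOXD1, a monooxygenase-like protein, stood at 0.0997, 0.0618 and 0.0528 CPM on day 7 and at 1.41, 0.555 and 0.981 CPM on day 14 (DESeq2 log2 fold change 3.80, SE 0.71, adjusted p = 0.000311, edgeR adjusted p = 0.404). All 3 day 14 hearts lay above all 3 day 7 hearts. HDC, the enzyme that makes histamine, was at 6.97 CPM in day 14 replicate 2 and at most at 0.141 CPM in the other 5 (DESeq2 adjusted p = 0.0116, edgeR adjusted p = 0.727). CFI, a complement inhibitor, was at 115 CPM in the same library and at most at 3.98 CPM in the others (DESeq2 adjusted p = 0.0415, edgeR adjusted p = 0.727).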
